A study of Homo sapiens with 6 samples.

Results

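The Frizzled receptor family was followed as the 10 genes with the symbols FZD1 to FZD10, out of 59151 genes with a value. All 10 were found, and 6 of them (FZD1, FZD2, FZD3, FZD5, FZD7 and FZD8) averaged 1 FPKM or more across the 6 libraries and were tested. FPKM divides a gene's fragments by its length and by the library's total, so levels can be compared between genes. The cells were day 26 forebrain neuron progenitors made from the human embryonic stem cell line H9. There were 3 groups of 2 libraries of ribosomal RNA-depleted total RNA. Cells of the shRNA1 and shRNA2 groups are labelled circRTN4(2,3) knockdown, and each expressed 1 of 2 short hairpin RNAs that target this circular RNA, which is made from RTN4. Cells of the scramble group are labelled WT and expressed a scrambled hairpin. The series asks what circRTN4(2,3) does in these cells, and the comparisons set each hairpin, and the mean of both (the knockdown), against scramble, and shRNA2 against shRNA1. How the hairpins were delivered, and whether the lines were clones, is not given in the sources used here.

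Frizzled proteins are cell surface receptors that cross the membrane several times and bind secreted Wnt proteins through a cysteine-rich domain outside the cell. Together with LRP5 or LRP6 they pass the signal to Dishevelled proteins and stabilise beta-catenin, which acts with TCF and LEF factors on target genes; without LRP5 or LRP6 they also act in planar cell polarity, the shared orientation of cells in a sheet. The ubiquitin ligases ZNRF3 and RNF43 remove Frizzled proteins from the cell surface, and R-spondins with their LGR receptors hold these ligases back. In the developing forebrain, Wnt signals from the cortical hem at the dorsal midline pattern the cortex, and Frizzled proteins also take part in axon growth.

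The members differ in sequence more than in the motif they use to bind Dishevelled, the residues lysine and threonine, any 3 residues, then tryptophan. Each of the 10 coding sequences in GENCODE v29 held this motif once in frame. The 30 bases around it, 5′ to 3′ on the coding strand, are shown for 8 members, because they show what the receptors share while their levels differ. Capitals mark the codons for lysine, threonine and tryptophan.
FZD5: tcgggcAAGACGgtggagtcgTGGcggcgt
FZD8: tccggcAAGACGctggagtccTGGcgctcc
FZD1: tccggcAAGACCctcaactccTGGaggaag
FZD2: tcgggcAAGACGctgcactcgTGGaggaag
FZD7: tcgggcAAGACCctgcagtcgTGGcgccgc
FZD4: tctgccAAAACTcttcacacgTGGcagaag
FZD9: agctccAAGACTttccagaccTGGcagagc
FZD10: acctccAAGACTctgcagtccTGGcagcag
In these 8 members the motif began at 87.6% to 96.6% of the coding length, and in FZD3 and FZD6 at 75.4% and 70.5%, so FZD3 and FZD6 have longer tails after it. Over whole coding sequences the closest relatives were FZD2 and FZD7 (80.3% of bases identical, over the longer sequence), FZD9 and FZD10 (73.4%), FZD1 and FZD7 (71.7%), FZD5 and FZD8 (66.9%) and FZD3 and FZD6 (60.9%), while FZD4 was closest to FZD10 at 58.2%. FZD3 and FZD6 each had 6 coding exons and FZD4 had 2, and the coding sequence of the other 7 members lay in 1 exon. The coding sequences of FZD3, FZD6 and FZD4 held 43.7%, 42.5% and 50.4% G and C bases, and those of the others 63.9% to 70.9%.

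The totals behind the FPKM values were 78488667 to 83629504 reads in the 4 hairpin libraries, and 46634855 and 77187298 reads in scramble replicates 1 and 2. The 2 scramble libraries stood further apart than the libraries of either hairpin, with a median replicate SD, in log2 units, of 0.0355 for shRNA1, 0.0452 for shRNA2 and 0.109 for scramble. RTN4, the host gene, had 34.2 and 34.7 FPKM with shRNA1, 31.2 and 31.3 FPKM with shRNA2, and 40.3 and 38.5 FPKM in scramble; the gene-level value mixes linear and circular RNA and does not measure the circular RNA. Of the defining markers of the labelled cells, the progenitor factor SOX2 had 28.6 to 32.7 FPKM and the neuronal gene DCX 94.9 to 120 FPKM over the 6 libraries. The labels give no sign of whether replicates were separate cultures; the p-values below then reflect only how far these libraries differ, which may be technical.

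FZD3 had the highest level of the family in every library, followed by FZD8, FZD5 and FZD2. Means over the 6 libraries were 17.3 FPKM for FZD3, 10.4 for FZD8, 7.83 for FZD5, 6.26 for FZD2, 3.18 for FZD1 and 2.52 for FZD7. The other 4 members lay below 1 FPKM, at 0.858 for FZD4, 0.763 for FZD6, 0.227 for FZD9 and 0.213 for FZD10. Between neighbours in this order, the ranges over the 6 libraries overlapped for FZD8 and FZD5, FZD1 and FZD7, FZD4 and FZD6, and FZD9 and FZD10. FZD8 was above FZD5 in all 6 libraries, FZD4 above FZD6 in 5 of 6 and FZD9 above FZD10 in 4 of 6. FZD3 was higher than 98.5% of all genes with a value, FZD8 than 97.1% and FZD7 than 84.0%. These shares are over all 59151 genes, of which only 18162 averaged 1 FPKM or more, so they overstate the rank among expressed genes.

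**Figure D1:**
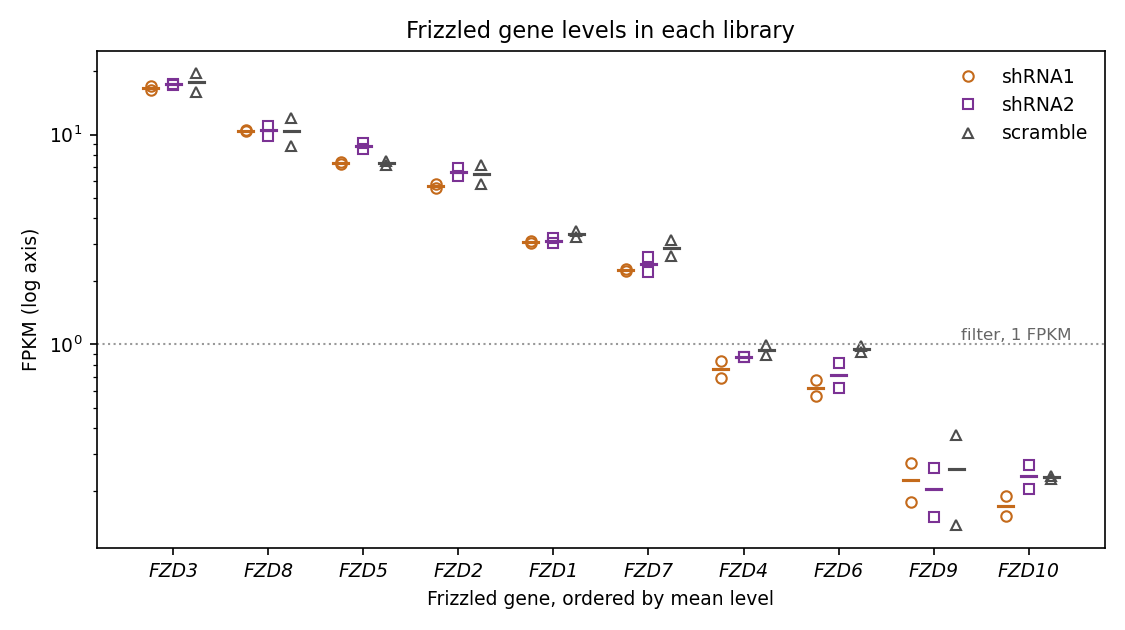
FPKM of each Frizzled gene on a log axis, with 1 point per library (circles shRNA1, squares shRNA2, triangles scramble), a short bar at each group's mean and a dotted line at the 1 FPKM filter; genes run in the order of their mean level. FZD3 lies highest at 16.0 to 19.6 FPKM and FZD9 and FZD10 lowest, all below 0.4 FPKM, while neighbours such as FZD4 and FZD6 overlap.

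The summed level of the family was 46.7 and 47.8 FPKM with shRNA1, 52.0 and 49.6 FPKM with shRNA2, and 49.5 and 51.7 FPKM in scramble. Both shRNA1 sums were the lowest of the 6, and the shRNA2 and scramble sums overlapped. FZD3, FZD5 and FZD8 together made up 68.7% to 73.1% of the sum in each library, and the 4 low members 3.56% to 4.76%. The share of FZD5 was 15.4% in both shRNA1 libraries, 17.5% and 17.3% in the shRNA2 libraries and 14.5% in both scramble libraries. FZD3 made up 35.0% and 35.7% with shRNA1, 33.1% and 35.3% with shRNA2, and 39.5% and 31.0% in scramble, so that the scramble libraries held both its highest and its lowest share.

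No tested Frizzled gene passed the threshold in any comparison: 0 of 6 in the knockdown, where 0.0826% of the 18162 tested genes passed, 0 of 6 with shRNA1 (0.033% of all), 0 of 6 with shRNA2 (0.628%) and 0 of 6 between shRNA2 and shRNA1 (0.0%; limma with Benjamini-Hochberg adjustment over all tested genes, adjusted p under 0.05). At an unadjusted p under 0.05 there was 1 member in each comparison, FZD7 in the knockdown and with shRNA1, and FZD5 with shRNA2 and between the hairpins. The share of all genes at that level was 13.8% in the knockdown, 8.97% with shRNA1, 16.1% between the hairpins and 19.2% with shRNA2. The median log2 fold change of the 6 members was -0.06 in the knockdown, -0.09 with shRNA1 and -0.003 with shRNA2, beside -0.03, -0.003 and -0.06 over all tested genes; between shRNA2 and shRNA1 it was 0.05 for the members and -0.06 for all genes. The comparisons against scramble share the 2 scramble libraries.

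FZD5 and FZD8 form 1 subfamily; in the mouse, Fzd5 is needed for eye development, and the cysteine-rich domain of Fzd8 has been crystallised together with a Wnt. FZD5 lies on chromosome 2, minus strand, at 207762598 to 207769906 (GRCh38.p14), and its coding sequence sits in 1 of its exons. It had 7.22 and 7.38 FPKM with shRNA1, 9.09 and 8.58 FPKM with shRNA2, and 7.17 and 7.51 FPKM in scramble. Both shRNA2 libraries lay above the 4 others, and shRNA1 and scramble overlapped. With shRNA2 the log2 fold change was 0.24 ± 0.055 (SE, n = 2 each), with a 95% interval of 0.10 to 0.38 (limma, unadjusted p = 0.00677, adjusted p = 0.133). Between shRNA2 and shRNA1 it was 0.24 as well (unadjusted p = 0.00597, adjusted p = 0.177). With shRNA1 it was -0.01 (interval -0.15 to 0.13), and in the knockdown 0.12 (adjusted p = 0.382). FZD5 was the only tested member whose shRNA2 libraries both exceeded both scramble libraries; 13.3% of all tested genes did so.

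FZD8, in 1 exon on the minus strand of chromosome 10 at 35638247 to 35642296, had 10.4 and 10.5 FPKM with shRNA1, 11.0 and 9.88 FPKM with shRNA2, and 8.78 and 12.0 FPKM in scramble. All 4 hairpin libraries lay between the 2 scramble libraries. Its log2 fold change was 0.02 in the knockdown (adjusted p = 0.962), with the widest interval of the family, -0.29 to 0.34. On the linear scale of FPKM + 1 that interval runs over 0.817 to 1.26 times the scramble level, so a change of up to about that size was not detectable here. The ratio of FZD5 to FZD8 was 0.694 and 0.704 with shRNA1, 0.824 and 0.869 with shRNA2, and 0.817 and 0.627 in scramble. The ratio was higher in both shRNA2 libraries than in the 4 others, though only slightly above scramble replicate 1, and the shRNA1 ratios lay between the scramble ratios.

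FZD1, FZD2 and FZD7 form another subfamily; FZD7 is a Wnt receptor of human embryonic stem cells, and changes in FZD2 cause a form of Robinow syndrome, a skeletal disorder. FZD7, on chromosome 2, plus strand, at 202033855 to 202038441, had 2.30 and 2.23 FPKM with shRNA1, 2.60 and 2.21 FPKM with shRNA2, and 2.65 and 3.13 FPKM in scramble. All 4 hairpin libraries lay below both scramble libraries, one of them (shRNA2 replicate 1) only slightly. The log2 fold change was -0.22 ± 0.080 (SE) in the knockdown (95% interval -0.42 to -0.02, unadjusted p = 0.0376, adjusted p = 0.331). The value with shRNA1 was -0.25 (adjusted p = 0.531), that with shRNA2 -0.19 (adjusted p = 0.329), and it was 0.06 between shRNA2 and shRNA1.

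FZD1, on chromosome 7, plus strand, at 91264433 to 91271326, had 3.04 and 3.11 FPKM with shRNA1, 3.20 and 3.03 FPKM with shRNA2, and 3.26 and 3.45 FPKM in scramble. Here too all hairpin libraries lay below scramble, and the log2 fold change was -0.09 in the knockdown (interval -0.22 to 0.04, adjusted p = 0.515). FZD1 and FZD7 were thus the 2 of 6 members whose knockdown libraries did not overlap scramble on the low side, as did 12.6% of all tested genes; 0 of 6 did on the high side (5.87% of all). FZD2, on chromosome 17, plus strand, at 44557484 to 44561262, had 5.56 and 5.80 FPKM with shRNA1, 6.91 and 6.31 FPKM with shRNA2, and 5.82 and 7.14 FPKM in scramble. Its shRNA1 libraries were the 2 lowest, the nearest scramble library being only slightly higher, and its shRNA2 libraries lay between the scramble libraries. The log2 fold change of FZD2 was -0.16 with shRNA1 (interval -0.41 to 0.10), 0.03 with shRNA2 and 0.19 between shRNA2 and shRNA1 (interval -0.07 to 0.44, adjusted p = 0.417).

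FZD3 and FZD6 form the subfamily best known for planar cell polarity; mice without Fzd3 lack major axon tracts of the forebrain, and Fzd6 orients hair in mouse skin. FZD3, on chromosome 8, plus strand, at 28494212 to 28574258, had 16.4 and 17.1 FPKM with shRNA1, 17.2 and 17.5 FPKM with shRNA2, and 19.6 and 16.0 FPKM in scramble. All hairpin libraries lay between the scramble libraries, as for FZD8, but here scramble replicate 1 was the higher and for FZD8 it was the lower. Its log2 fold change was -0.05 in the knockdown (interval -0.27 to 0.16, adjusted p = 0.837), -0.08 with shRNA1, -0.03 with shRNA2 and 0.05 between shRNA2 and shRNA1.

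Counted over the tested members, 3 of 6 (FZD1, FZD2 and FZD7) had both shRNA1 libraries below both scramble libraries, where 18.9% of all genes did, and 0 of 6 had both above (15.8%). With shRNA2 2 of 6 (FZD1 and FZD7) lay below scramble (34.4% of all) and 1 of 6 above. Between the hairpins, shRNA2 was above shRNA1 without overlap for 3 of 6 (FZD2, FZD3 and FZD5; 16.6% of all) and below for 0 of 6 (46.6%).

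The 4 members below the filter were fitted only in the alternative with no filter, in which 0 genes of the whole table passed in any comparison. FZD6, on chromosome 8, plus strand, at 103298494 to 103332866, had 0.565 and 0.678 FPKM with shRNA1, 0.623 and 0.811 FPKM with shRNA2, and 0.921 and 0.979 FPKM in scramble. These values rest on 189 and 216 reads with shRNA1, 212 and 264 reads with shRNA2, and 174.5 and 307 reads in scramble. All hairpin libraries lay below scramble; the log2 fold change was -0.23 ± 0.073 (SE) in the knockdown (unadjusted p = 0.0294, adjusted p = 0.436), and on the log2(FPKM + 1) scale it understates the change of so low a gene.

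FZD4, the receptor of Norrin in blood vessels of the retina, lies on chromosome 11, minus strand, at 86945679 to 86955395. It had 0.829 and 0.694 FPKM with shRNA1, 0.873 and 0.870 FPKM with shRNA2, and 0.995 and 0.885 FPKM in scramble, again with all hairpin libraries below scramble and a log2 fold change of -0.10 in the knockdown (adjusted p = 0.700). PRSS23, at 86791071 to 86952910 on the plus strand, overlaps it in the annotation and had 0.740 and 0.720 FPKM with shRNA1, 0.907 and 0.911 FPKM with shRNA2, and 1.13 and 1.06 FPKM in scramble. The strand setting of the counting is not given in the sources used here, so reads of FZD4 and PRSS23 cannot be told apart with certainty.

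FZD9, which lies in the region deleted in Williams syndrome on chromosome 7 (73433778 to 73436120, plus strand), had 0.272 and 0.177 FPKM with shRNA1, 0.258 and 0.150 FPKM with shRNA2, and 0.137 and 0.371 FPKM in scramble. The lowest and the highest value were both from scramble, and they rest on 15 and 67 reads; the counting intervals of these 2 libraries, 0.077 to 0.227 FPKM and 0.287 to 0.471 FPKM, do not overlap. FZD10, on chromosome 12 at 130162464 to 130165740 (plus strand), had 0.189 and 0.151 FPKM with shRNA1, 0.204 and 0.267 FPKM with shRNA2, and 0.235 and 0.229 FPKM in scramble, on 36 to 70 reads per library. Its shRNA1 libraries were the lowest pair, and its shRNA2 and scramble libraries overlapped. The antisense gene FZD10-AS1 had at most 0.055 FPKM. In the knockdown the log2 fold change was -0.04 for FZD9 (adjusted p = 0.907) and -0.04 for FZD10 (adjusted p = 0.819). The intervals cover counting error only.

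The gap between the 2 scramble libraries moved with the GC content of the transcript. Over the tested protein-coding genes, the median of replicate 1 minus replicate 2 in scramble was 0.16 on the log2 scale for 1679 genes with under 40% GC in their longest transcript, and -0.35 for 1225 genes with over 60%. The same medians rose with GC content, from -0.02 to 0.01 for shRNA1 and from -0.03 to 0.10 for shRNA2. Among the Frizzled genes, FZD3 (34.9% GC) had a scramble gap of 0.27, FZD5 (49.9%) of -0.06, FZD7 (52.8%) of -0.18, FZD2 (64.9%) of -0.26 and FZD8 (64.6%) of -0.41. The other members had gaps of -0.04 for FZD6 (38.4%), 0.08 for FZD4 (46.2%), -0.07 for FZD1 (47.7%), 0.01 for FZD10 (58.4%) and -0.27 for FZD9 (68.4%). On the log2(FPKM + 1) scale FZD6 and FZD10, both below the filter, lay farthest from the medians of the tested protein-coding genes of like GC content. This scale shrinks the gaps of genes so low, such as FZD9 with 0.137 and 0.371 FPKM in scramble replicates 1 and 2. Genes with names of small noncoding RNAs took 31.8% to 33.6% of the summed FPKM in the hairpin libraries, and 27.4% and 38.6% in scramble replicates 1 and 2. These names included snRNA, snoRNA, RN7SL, RN7SK, Y RNA and vault RNA genes, RMRP and RPPH1.

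**Figure D2:**
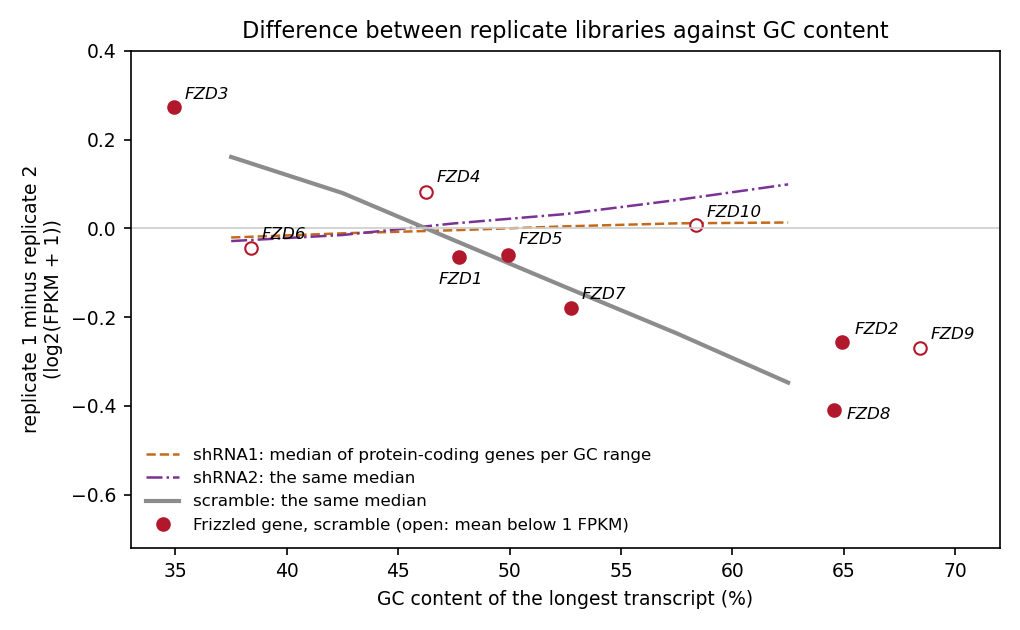
Replicate 1 minus replicate 2 in log2(FPKM + 1) against the GC content of the longest transcript, in percent; lines give the median of the protein-coding genes in each GC range for shRNA1, shRNA2 and scramble, drawn in or near the middle of the range, and points give the Frizzled genes in scramble (open where the mean is below 1 FPKM). The scramble line falls as GC content increases, with FZD3 at 0.27 and FZD8 at -0.41. The hairpin lines rise, from -0.02 to 0.01 for shRNA1 and from -0.03 to 0.10 for shRNA2.

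After each library's values were corrected for GC content, a step added once the data had been seen, some Frizzled genes passed, and so did far more genes altogether. FZD5 rose with shRNA2 by 0.35 ± 0.034 (SE, adjusted p = 0.000544), against shRNA1 by 0.33 (adjusted p = 0.000903) and in the knockdown by 0.19 (adjusted p = 0.00764), while with shRNA1 it was 0.02 (adjusted p = 0.787). These 3 FZD5 calls held when each library was left out in turn. In all such corrected fits the GC correction was made once on all 6 libraries, so the library left out still shaped it. FZD2 was higher with shRNA2 than with shRNA1 by 0.34 (adjusted p = 0.00278), which also held without each library. It was lower with shRNA1 than in scramble at -0.21 (adjusted p = 0.034), a call lost without any 1 of the 4 hairpin libraries. The GC content of FZD2 came from a GENCODE v29 length of 2112 bases, while its FPKM steps fitted 3819 bases. Both FZD2 calls thus rest on a GC content that may not cover the whole counted gene. FZD7 fell with shRNA1 by 0.23 (adjusted p = 0.0279), a call lost without either shRNA1 library. FZD8 rose with shRNA2 by 0.12 (adjusted p = 0.0364) and was 0.15 above shRNA1 (adjusted p = 0.017), and both calls were lost without any 1 hairpin library. Further corrected calls appeared when a library was left out: FZD2 with shRNA2 without scramble replicate 1, FZD7 in the knockdown without shRNA2 replicate 1, and FZD3 and FZD7 between the hairpins without either scramble library.

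The count of members that passed after GC correction was 1 of 6 in the knockdown, beside 11.4% of the 9727 protein-coding genes fitted; 2 of 6 with shRNA1, beside 8.63%; 2 of 6 with shRNA2, beside 17.7%; and 3 of 6 between shRNA2 and shRNA1, beside 20.0%. Of the same kind of genes without the correction 134, 24, 421 and 269 passed in these comparisons in the same order, and 0 Frizzled genes. FZD1 and FZD3 passed in 0 of the 4 comparisons after correction, with log2 fold changes in the knockdown of -0.02 (interval -0.09 to 0.06) and -0.01 (interval -0.08 to 0.06). FZD2, whose GC content is uncertain, is among the members counted with shRNA1 and between the hairpins. The part of GC content in the uncorrected values was not tested in any other way.

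**Figure D3:**
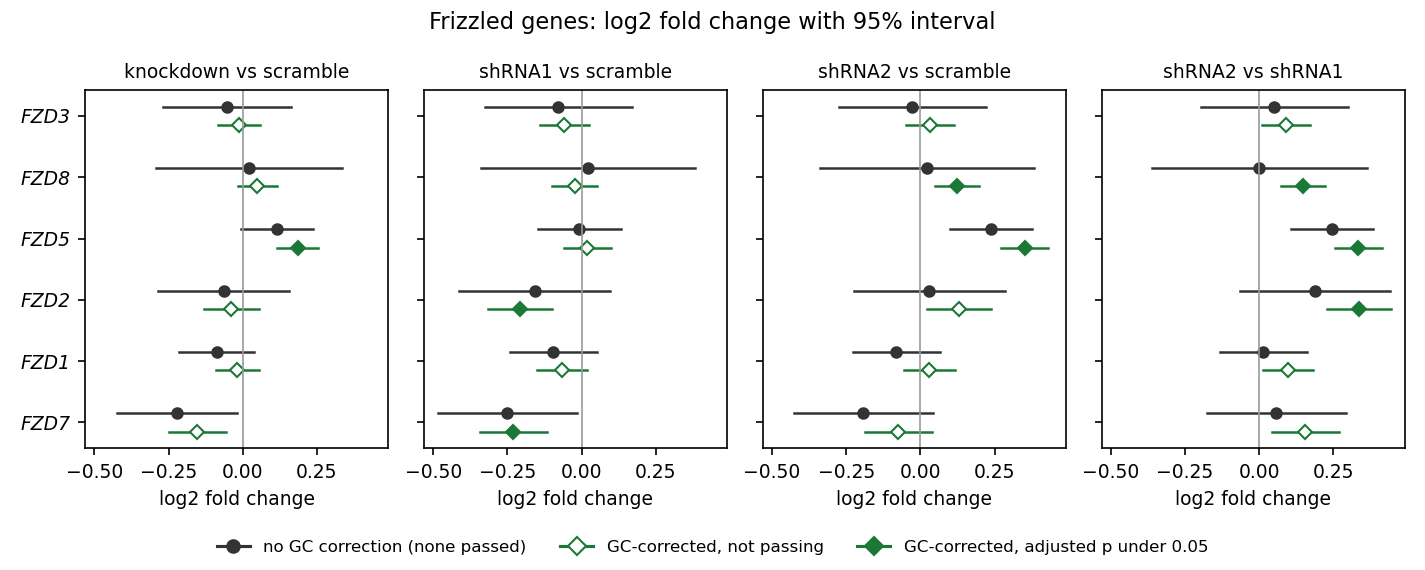
Log2 fold change with its 95% interval for the 6 tested Frizzled genes in the 4 comparisons; black circles are the values without GC correction, of which none passed, and green diamonds the GC-corrected values, filled where the adjusted p is under 0.05. FZD5 lies to the right with shRNA2 (0.24 uncorrected, 0.35 corrected) and near 0 with shRNA1, and the corrected intervals are narrower throughout.

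Among the other genes of the pathway, most Wnt ligand genes lay below the filter: 4 of 20 listed ligand genes were tested and 8 of 20 averaged below 0.1 FPKM. WNT8B, a ligand of the cortical hem, was the 1 of 4 that fell, by 0.86 in the knockdown, 1.15 with shRNA1 and 0.56 with shRNA2, at an adjusted p of 0.0208, 0.0169 and 0.042. Without any 1 of the 6 libraries WNT8B stayed between -0.87 and -0.84 in the knockdown, but the call was lost without 5 of them, the exception being scramble replicate 1; with shRNA1 it was lost without any 1 library, and with shRNA2 without any 1 hairpin library. WNT7A, a ligand of forebrain progenitors, had 3.29 and 3.74 FPKM with shRNA1, 2.46 and 2.04 FPKM with shRNA2, and 3.09 and 4.05 FPKM in scramble, and did not pass with shRNA2 (log2 fold change -0.49, adjusted p = 0.156). Of the 12 genes of Wnt secretion and handling 8 were tested, and 2 fell in the knockdown and with shRNA2: WLS, which carries Wnt proteins to the cell surface (-0.81 in the knockdown), and SULF1, which edits heparan sulphate chains (-1.08; adjusted p = 0.0353 each). In the knockdown the WLS call held only without scramble replicate 1, and the SULF1 call was lost in each of the 5 fits without 1 library in which it stayed above the filter; with shRNA2 both were lost without any 1 hairpin library. With shRNA1 0 of 8 passed, with WLS at -0.96 (adjusted p = 0.0501).

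Of the 9 genes that control Frizzled protein at the cell surface 5 were tested, and all 5 had log2 fold changes below 0 in the knockdown, with a median of -0.42 beside -0.03 over all tested genes. RSPO2, an R-spondin, fell by 1.54 in the knockdown, 1.41 with shRNA1 and 1.68 with shRNA2, at an adjusted p of 0.0208, 0.0466 and 0.0182. RSPO3 passed with shRNA2 (-0.78, adjusted p = 0.0393) and was at similar values without passing in the knockdown (-0.72, adjusted p = 0.0526) and with shRNA1 (-0.66, adjusted p = 0.146). RSPO1 was at -0.42 in the knockdown, -0.53 with shRNA1 and -0.32 with shRNA2, and did not pass. The RSPO2 call was lost without 5 of 6 libraries in the knockdown, without any 1 library with shRNA1 and without any 1 hairpin library with shRNA2; RSPO3 was lost in all 4 such fits. LGR4, the R-spondin receptor with the highest level, had 3.38 and 3.32 FPKM with shRNA1, 3.75 and 3.78 FPKM with shRNA2, and 4.61 and 4.31 FPKM in scramble; its log2 fold change of -0.26 in the knockdown did not pass (adjusted p = 0.151). The ligases showed no call: ZNRF3 had 1.69 and 1.84 FPKM with shRNA1, 1.56 and 1.41 FPKM with shRNA2, and 1.69 and 2.01 FPKM in scramble, and RNF43 was below 0.16 FPKM in every library.

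Of the co-receptors and other Wnt receptors, 5 of 8 were tested and 0 passed in any comparison. LRP6 had 10.7 and 10.6 FPKM with shRNA1, 10.8 and 10.8 FPKM with shRNA2, and 11.4 and 10.5 FPKM in scramble, with a log2 fold change of -0.02 in the knockdown (interval -0.15 to 0.10). RYK, a receptor kinase-like Wnt receptor, was at -0.06 (adjusted p = 0.627). Of the proteins that share the Frizzled cysteine-rich domain, SMO, the Hedgehog signal transducer, had 5.74 and 5.57 FPKM with shRNA1, 6.42 and 5.83 FPKM with shRNA2, and 5.35 and 7.08 FPKM in scramble. Among the secreted antagonists 2 of 5 tested passed, both with shRNA2: FRZB rose by 1.01 (adjusted p = 0.0353) and SFRP2 fell by 0.78 (adjusted p = 0.0486), and both calls were lost without any 1 hairpin library, that of SFRP2 also without scramble replicate 2. SFRP2 was as low without passing with shRNA1 (-0.89, adjusted p = 0.127) and in the knockdown (-0.84, adjusted p = 0.0526), and FRZB was at 0.24 with shRNA1 (adjusted p = 0.515) and 0.62 in the knockdown (adjusted p = 0.0892).

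Inside the cell, 20 of 21 relay genes were tested and 0 passed, with log2 fold changes below 0 for 17 of 20 in the knockdown, where 63.1% of all tested genes were below 0. LEF1, a partner of beta-catenin on DNA, had 3.70 and 3.82 FPKM with shRNA1, 3.73 and 3.59 FPKM with shRNA2, and 4.75 and 4.94 FPKM in scramble, without overlap; its log2 fold change of -0.33 with shRNA2 had an adjusted p of 0.0804. DVL3, the Dishevelled gene with the highest level, was at -0.28 with shRNA2 (adjusted p = 0.154). Among the beta-catenin target genes 6 of 16 were tested and 0 passed; AXIN2, a feedback inhibitor, was at -0.22 in the knockdown (adjusted p = 0.311) and CCND1, a cyclin, at -0.20 (adjusted p = 0.196). Of the planar polarity genes 11 of 15 were tested and 0 passed, with PRICKLE1 at -0.45 with shRNA2 (adjusted p = 0.0756). Between shRNA2 and shRNA1, 0 genes of these lists passed.

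**Figure D4:**
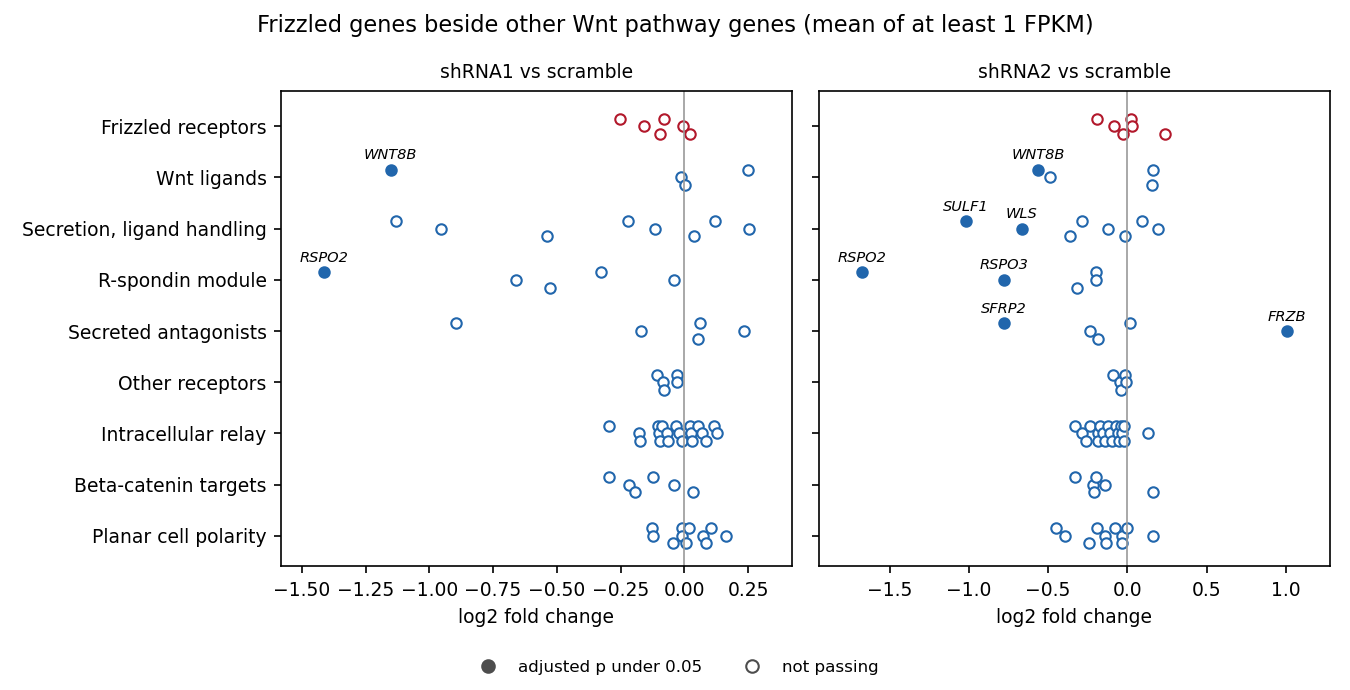
Log2 fold change against scramble with shRNA1 (left) and shRNA2 (right) for the tested Frizzled genes (red) and the tested genes of 8 Wnt pathway lists (blue), 1 point per gene, filled and named where the adjusted p is under 0.05; the 2 axes have different ranges. The Frizzled genes lie between -0.25 and 0.24, while RSPO2 reaches -1.41 with shRNA1 and -1.68 with shRNA2.

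Markers of other cells that the culture could hold moved with the hairpins, and bulk RNA cannot tell fewer cells of a type from less RNA per cell. The 12 markers of cortical hem, roof plate and choroid plexus summed to 17.5 FPKM in both shRNA1 libraries. Their sums were 21.3 and 21.8 FPKM with shRNA2, and 33.2 and 36.0 FPKM in scramble. Much of the hairpin sums was OTX2, also a forebrain patterning marker, which did not pass in any comparison. OTX2 had 11.0 and 10.8 FPKM with shRNA1, 14.1 and 14.7 FPKM with shRNA2, and 11.2 and 11.8 FPKM in scramble. In all, 5 of 12 were tested, and 3 fell in the knockdown: TTR (log2 fold change -2.48), WNT8B and RSPO2. With 1 library left out at a time TTR stayed between -2.54 and -2.41 in the knockdown, but its call was lost without 3 of the 6. Of the 5 tested, WNT8B, RSPO2 and RSPO3 are also among the Wnt ligand and R-spondin genes above, so these lists do not count separate genes. The 8 mesenchyme markers summed to 1.56 and 1.44 FPKM with shRNA1, 0.897 and 0.689 FPKM with shRNA2, and 6.05 and 6.79 FPKM in scramble, with COL3A1 the 1 tested. COL3A1 passed in the knockdown (log2 fold change -1.77), with shRNA1 (-1.52) and with shRNA2 (-2.03). In the fits without 1 library where it stayed above the filter, it was between -1.79 and -1.76 in the knockdown, and its calls did not hold. The 6 pluripotency markers summed to 10.5 and 10.7 FPKM with shRNA1, 17.6 and 17.4 FPKM with shRNA2, and 9.40 and 9.56 FPKM in scramble; LIN28A and DPPA4 rose with shRNA2, calls that were also lost without any 1 hairpin library, and POU5F1 and NANOG stayed below 0.07 FPKM in every library. The 6 endothelial markers summed to 0.452 to 0.679 FPKM over the libraries with 4 of 6 averaging below 0.1 FPKM, and the 9 midbrain and hindbrain markers to 0.522 to 0.780 FPKM with 7 of 9 below it.

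The progenitor markers (10 of 10 tested) and the cell cycle genes (8 of 8 tested) had 0 genes passing. The progenitor markers summed to 177 and 176 FPKM with shRNA1, 189 and 184 FPKM with shRNA2, and 188 and 205 FPKM in scramble. All 8 cell cycle genes had log2 fold changes below 0 in the knockdown, where 63.1% of all tested genes were below 0. Their sums were 90.5 and 92.5 FPKM with shRNA1, 104 and 103 FPKM with shRNA2, and 115 and 110 FPKM in scramble. Summed eye field markers spanned 25.8 to 29.8 FPKM and neural crest markers 1.89 to 2.82 FPKM over the 6 libraries, with 0 of 2 and 0 of 1 tested genes passing. The part of these cells in the Frizzled values was not tested.

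The genes with the profile most like FZD7, of the 6 tested members the one with the smallest p in the knockdown, were EDC3, CDCA7 and CDCA4, with root mean square differences on the log2 scale of 0.0316, 0.0319 and 0.0321 over the 6 libraries, among 9761 protein-coding genes. As 1151 genes lay within 0.1 and the median was 0.14, these are 3 of many genes with a profile near that of FZD7. EDC3 had 4.70 and 4.59 FPKM with shRNA1, 5.09 and 4.83 FPKM with shRNA2, and 5.41 and 6.12 FPKM in scramble. The promoters of 5 members (FZD1, FZD4, FZD5, FZD8 and FZD9; RefSeq, GRCh38.p14, 250 bases before to 50 after the start) held the TCF and LEF core CTTTGAA or CTTTGAT on either strand in 0 of 5, beside 6.86% of 35116 promoters of the same length; these letters are not in these windows, and nothing follows from that about the factors.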

How the data were processed

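Ribosomal RNA-depleted total RNA of 6 libraries (3 groups of 2) was sequenced by the authors from KAPA RNA HyperPrep libraries, per the labels' protocols. The deposited table holds 1 FPKM value per gene and library, per the file headers. The submitters' processing notes name Trimmomatic 0.39, HISAT2 2.1.0, SAMtools 1.9, featureCounts 2.0.1 and GRCh38 (hg38); the annotation used and the handling of strand and of multiply mapped reads were not given in the sources used here. Library totals and read numbers of the members were recovered from the steps of the FPKM values. The recovered reads came in hundredths, so no count test was run; a length found this way may be too short by a whole factor, and 6 of the 10 members' lengths equalled the GENCODE v29 exon union.

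Values were analysed as log2(FPKM + 1) for the 18162 genes that averaged 1 FPKM or more. All 3 groups entered 1 limma fit (version 3.58.1, R 4.3.3) with trended variance; p-values were adjusted over these genes by the Benjamini-Hochberg method. For the GC correction, each gene's log2 value in a library was first set against its mean over the 6 libraries. A loess fit (span 0.5) of these deviations on the GC content of the longest GENCODE v29 transcript was subtracted in each library. Any difference between the groups that follows GC content was thereby removed too. GC content was known for 9727 of 9762 protein-coding tested genes (99.6%). The scripts were tested on simulated data. Sequences were read with biopython 1.88 from GENCODE v29 and RefSeq tables (Python 3.11.15, numpy 2.4.6, pandas 2.3.3, matplotlib 3.10.9). The members, gene lists and tests were chosen with earlier results of these data known. All 10 members were described; up to 4 genes a list with the smallest p were named per comparison, and ligases, LGR4, SMO and overlapping genes were added for their role. Reads on near-identical stretches of FZD2 and FZD7 may be shared. Intervals on read numbers are exact Poisson 95% intervals and cover counting error only.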

Additional observations from a re-analysis of the deposited data

How the results depend on the processing

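Under 15 other settings (another pseudocount, filter, scaling, trend, gene set or group choice, the replicate block, and each library left out) 0 Frizzled genes passed in any comparison; the lowest adjusted p was 0.063 for FZD5 with shRNA2 and 0.052 for FZD5 between the hairpins. GC correction, chosen after the data were seen, gave 1 in the knockdown, 2 with shRNA1, 2 with shRNA2 and 3 between the hairpins. Of 400 alternative values of single members, 26 changed sign, 8 passed newly (all with GC correction) and 366 did neither; the cause was not tested. In the knockdown, quantile normalization put FZD2 at 0.00054 and FZD3 at 0.049. With shRNA1 it put FZD5 at 0.015, and GC correction put FZD5 at 0.019 and FZD8 at -0.024. With shRNA2, GC correction put FZD1 at 0.030, and FZD3 was 0.053 under median-of-ratios scaling, 0.13 under quantile normalization and 0.032 under GC correction.

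Leaving out 1 library at a time gave, in the knockdown, -0.19 to 0.064 for FZD2, -0.19 to 0.083 for FZD3 and -0.18 to 0.23 for FZD8. With shRNA1 it gave -0.22 to 0.058 for FZD3, -0.037 to 0.023 for FZD5 and -0.18 to 0.23 for FZD8. With shRNA2 it gave -0.099 to 0.16 for FZD2, -0.16 to 0.11 for FZD3 and -0.18 to 0.23 for FZD8. Between shRNA2 and shRNA1 it gave -0.016 to 0.044 for FZD1, -0.025 to 0.14 for FZD7 and -0.072 to 0.073 for FZD8.

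Counts over all genes moved far more. In the knockdown, the 15 calls (1 higher, 14 lower) became 494 without scramble replicate 1, 1 without scramble replicate 2, 0 to 1 without a hairpin library, 35 with a filter of 5 FPKM, 134 for protein-coding genes and 0 with no filter. They became 10 higher and 18 lower under median-of-ratios scaling, and 12 and 18 under quantile normalization. With shRNA2, the 114 calls (34 higher, 80 lower) became 2412 without scramble replicate 1, 492 without scramble replicate 2, 0 to 1 without a hairpin library, 261 with the 5 FPKM filter, 1 with only the groups compared, and 37 higher and 34 lower under quantile normalization. With shRNA1 the 6 calls became 0 to 1 without any 1 library and at most 24 otherwise. Between the hairpins the 0 calls became 956 without scramble replicate 1, 1010 without scramble replicate 2, 957 with only the groups compared and 0 without a hairpin library.

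By replicate number, deviations from the group means correlated at -0.008 between scramble and shRNA1, -0.15 between scramble and shRNA2 and 0.01 between the hairpins. These values cannot show whether the samples were paired, because the gap between the scramble libraries can cover a shared shift. The labels do not give the pairing. With the replicate block, 1 gene passed in the knockdown and 0 in the other comparisons, and 0 Frizzled genes; with the numbers crossed between scramble and the hairpins, 3 passed in the knockdown and 4 with shRNA2. With 2 libraries a group, the fit could not separate small changes of FZD8 or FZD3 from the gap between the scramble libraries, and FZD9 and FZD10 rest on 15 to 70 reads per library.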
